A study of Bos taurus with 9 samples.

Results

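In all, 10 of the 20679 genes counted in cultures of bovine uterine glands were taken by symbol as classical cadherins, and markers and regulators of the epithelial-mesenchymal transition: *CDH1*, *CDH2*, *CDH3*, *EPCAM*, *VIM*, *SNAI1*, *SNAI2*, *ZEB1*, *ZEB2* and *TWIST1*.
All 10 symbols were found in both the count and the TPM values, and the rule used the symbol and no expression value. The glands came from abattoir uteri of cows at the luteal stage. Gland fragments were grown for 5 days in Matrigel, a basement membrane gel, in serum-free medium with insulin and transferrin. CYST cultures had no epidermal growth factor (EGF) and formed cysts, MAT cultures had EGF in Matrigel and formed gland-like tubes (UG-LIKE structures), and MAT + COL cultures had EGF in Matrigel with type I collagen, with 3 libraries in each group. The labels do not say whether the replicates of a group came from different animals. The study's text treats the MAT and MAT + COL libraries as coming from individuals, without linking these to replicate numbers or to CYST, so the p-values are read as measuring the spread between these libraries.

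Cadherins are calcium-dependent adhesion proteins that hold neighbouring cells together and are tied to the actin cytoskeleton by catenins. In an epithelial-mesenchymal transition, transcription factors of the SNAIL, ZEB and TWIST families repress *CDH1* (E-cadherin) and other epithelial genes, and cells may take up *CDH2* (N-cadherin) and the intermediate filament protein vimentin (*VIM*). Uterine gland epithelium is a polarised epithelium joined by E-cadherin. The stroma around it expresses vimentin and several of these transcription factors, and vimentin is also a protein of some epithelia.

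Total counts ranged from 6568968 to 17948600 per library. Counting limits below cover counting error only and treat each read as independent. The reads had no molecular identifiers, so copies of the same molecule could not be told apart and the limits may be too narrow. The labelled cell type, epithelial cells, was matched by *KRT19* and *KRT8*, keratins of simple epithelium, at 7413 to 23887 and 7952 to 18311 TPM. These were the highest of 9 gland epithelium markers by mean TPM. *FOXA2*, a transcription factor of the same list, was at 1.31 to 12.4 TPM. RNA of stromal markers was present in all 9 libraries. The summed TPM of 10 stromal markers was 2035 to 4577 in CYST, 760 to 3021 in MAT and 1920 to 3520 in MAT + COL, with only *HAND2*, a stromal transcription factor, listed at 0, in 6 of the 9 libraries. Bulk RNA cannot tell fewer cells of a type from less RNA per cell.

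The 10 genes fell into a high, a middle and a low range of TPM, a scale that allows levels of different genes to be compared. *EPCAM*, an epithelial adhesion protein, had the highest mean over the 9 libraries (595 TPM), followed by *VIM* (454 TPM) and *CDH1* (453 TPM), whose ranges overlapped. The order of the last pair was not that of most libraries, since *VIM* was above *CDH1* in 3 of 9 libraries, all of them replicate 3. *SNAI2* followed at 33.0 TPM, and its range overlapped neither that of *CDH1* above nor that of *CDH3* (P-cadherin, 6.53 TPM) below. *SNAI1* averaged 3.71 TPM, *ZEB1* 1.04, *ZEB2* 0.662, *CDH2* 0.220 and *TWIST1* 0.146, and each neighbouring pair from *CDH3* downwards overlapped. *CDH1* exceeded 98.5% of all listed genes in mean TPM, and *TWIST1* exceeded 33.6%.

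**Figure D1:**
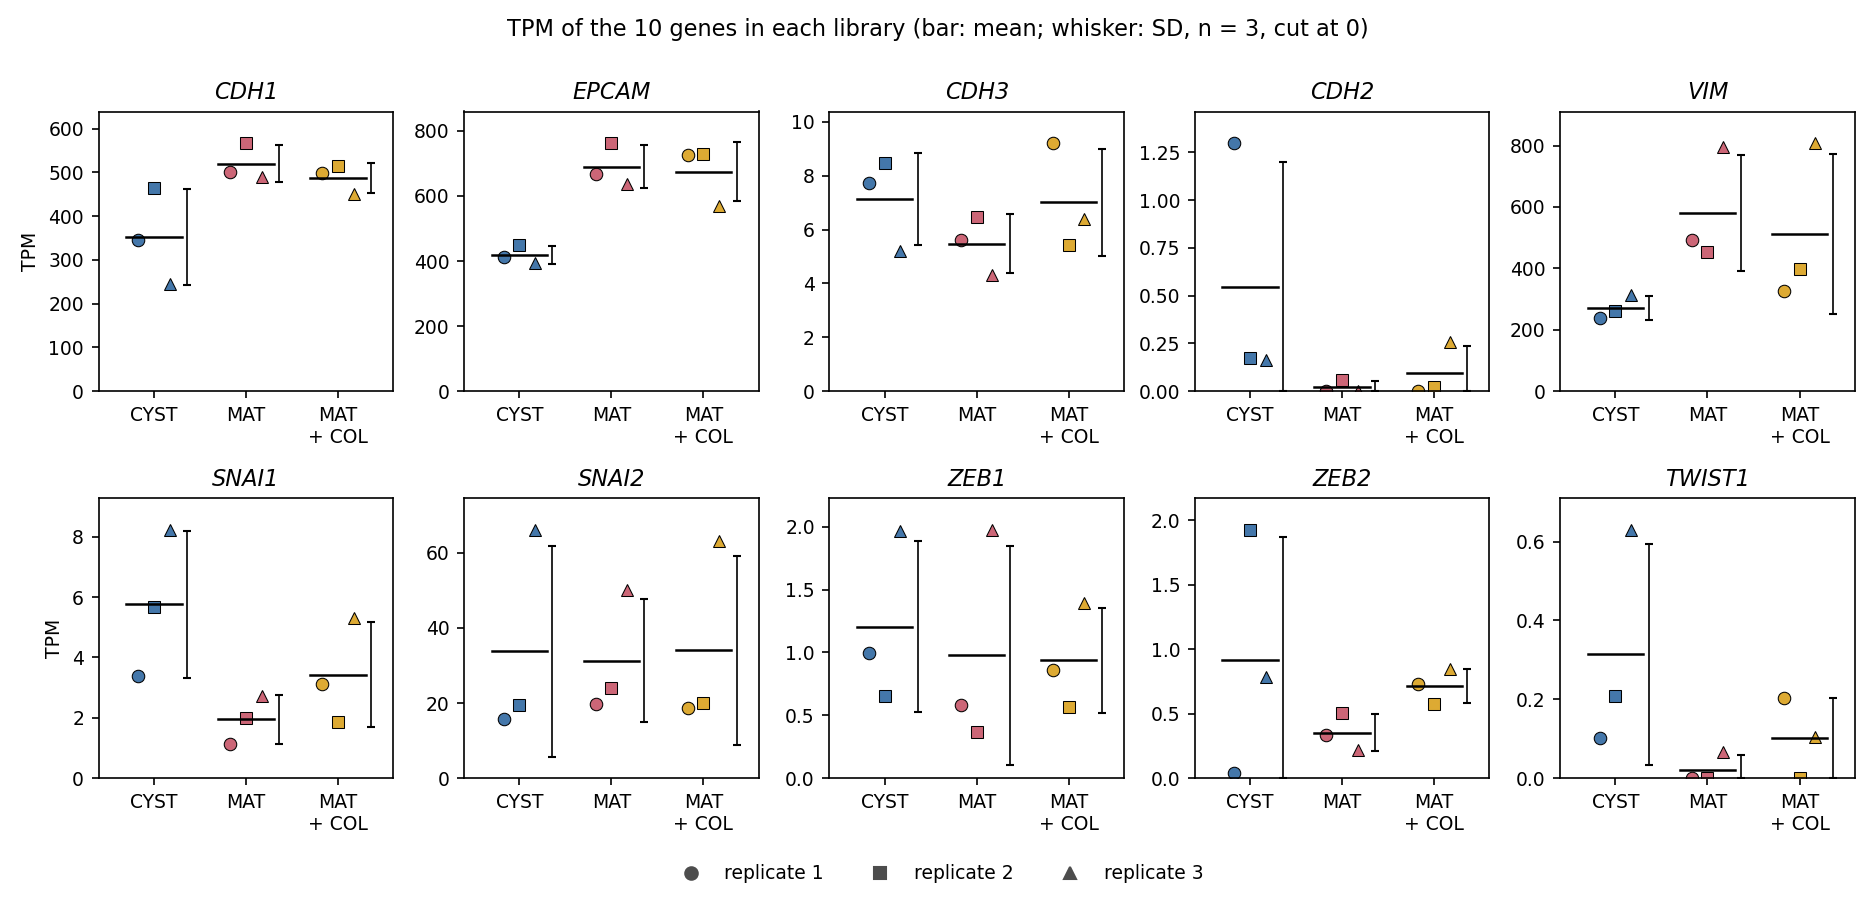
TPM (vertical axes, each from 0 and with its own scale) of the 10 genes in the 9 libraries by group, with symbols for replicate numbers, bars for means and whiskers for SD (n = 3). All MAT libraries lie above all CYST libraries for CDH1, EPCAM and VIM and below them for SNAI1, and replicate 3 is the highest library of each group for SNAI2.

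*CDH1* (ENSBTAG00000015991) lies on chromosome 18 of ARS-UCD2.0, from 36046665 to 36119813 on the plus strand, and encodes the main cadherin of epithelial junctions. Its TPM was 345, 465 and 246 in CYST replicates 1 to 3, 501, 568 and 490 in MAT, and 499, 515 and 450 in MAT + COL. All MAT libraries were above all CYST libraries, whereas the lowest MAT + COL library was below CYST replicate 2. The group means were 352 ± 110 TPM in CYST, 520 ± 42.5 in MAT and 488 ± 34.0 in MAT + COL (SD, n = 3 each). Between MAT and CYST the Log2FC was 0.58 (SE 0.20), with an adjusted p of 0.157 in edgeR's quasi-likelihood test and 0.0646 with the replicate number as a block, so *CDH1* was not called in either fit. In the same-numbered pairs the TPM ratio of MAT to CYST was 1.45, 1.22 and 1.99, and 25.1% of all genes tested were likewise higher in 3 of 3 pairs. With the block, DESeq2 gave an adjusted p of 0.0112 and edgeR on all 9 libraries 0.0188.

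*CDH3* (ENSBTAG00000033248), which encodes P-cadherin, lies next to *CDH1* on chromosome 18, from 35814652 to 36015608 on the plus strand. The ends of the 2 genes are 31.1 kb apart, and 1 gene without a symbol is listed between them. *CDH3* TPM was 7.72, 8.46 and 5.20 in CYST, 5.61, 6.48 and 4.31 in MAT, and 9.23, 5.43 and 6.37 in MAT + COL. The groups overlapped, and the Log2FC between MAT and CYST was -0.38 (SE 0.26, edgeR adjusted p = 0.453). The 3 same-numbered pairs had MAT to CYST ratios of 0.727, 0.767 and 0.828. The ratio of *CDH1* to *CDH3* TPM was 44.6, 55.0 and 47.2 in CYST and 89.2, 87.7 and 114 in MAT, without overlap. In MAT + COL it was 54.1, 94.9 and 70.5, overlapping both other groups.

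*CDH2* (ENSBTAG00000021190, chromosome 24, 28654848 to 28969812, plus strand), the cadherin of many mesenchymal and neural cells, did not pass the count filter in any comparison. Its counts were 31, 8 and 5 in CYST, 0, 3 and 0 in MAT, and 0, 1 and 12 in MAT + COL. Of the 44 CYST counts, 31 came from replicate 1. In counts scaled to TMM-adjusted library sizes, the pooled CYST libraries held 14.7 times the level of the MAT libraries (exact 95% interval for counting error, 4.72 to 74.2) and 5.79 times without CYST replicate 1 (1.59 to 31.7). Against MAT + COL the ratio was 4.93 (2.61 to 9.97), and 1.94 without that library (0.826 to 4.53). The *CDH2* level therefore rested largely on 1 library, and these intervals do not include the spread between libraries. *CDH1* made up 97.4% to 99.1% of the summed TPM of *CDH1*, *CDH2* and *CDH3* in every library.

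Among 12 further cadherins, 5 exceeded 1 TPM in some library. *CDH17*, or LI-cadherin, a cadherin of intestinal epithelium with a short cytoplasmic tail that does not bind catenins, was above *CDH1* in 9 of 9 libraries, by 1.39 to 3.51 times. Its TPM was 698, 867 and 342 in CYST, 1305, 1996 and 725 in MAT, and 1486, 1635 and 753 in MAT + COL. Replicate 3 was the lowest library in each group, and MAT replicate 3 was below CYST replicate 2. The Log2FC of *CDH17* was 1.10 (SE 0.39) between MAT and CYST, with an edgeR adjusted p of 0.159 without and 0.0152 with the block, and 0.98 (SE 0.34) between MAT + COL and CYST, with 0.158 and 0.0286. Thus *CDH17* rose in both EGF groups in the blocked fit and was not called without the block. *CDH11*, a cadherin of mesenchymal cells, was at 2.89 to 13.2 TPM, with overlapping groups and a Log2FC of -0.61 (SE 0.46, edgeR adjusted p = 0.504) between MAT and CYST.

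**Figure D2:**
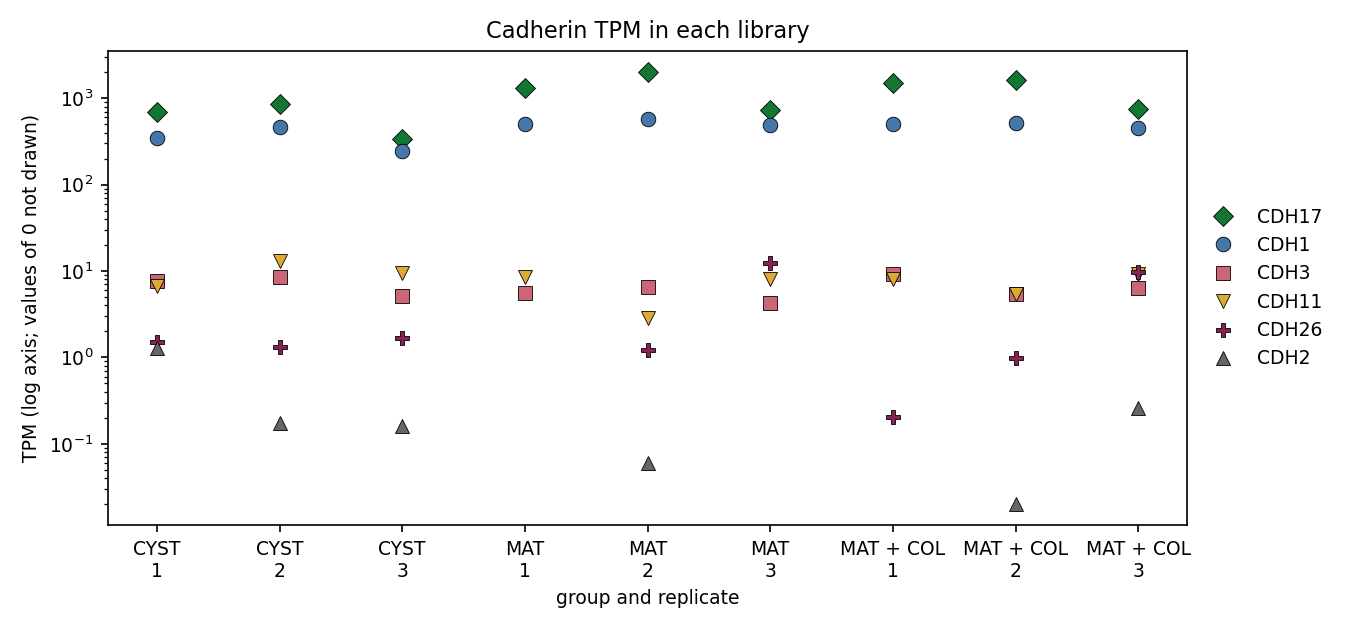
TPM on a log axis of 6 cadherins in each of the 9 libraries, one symbol per gene, with values of 0 not drawn. CDH17 lies above CDH1 in all 9 libraries, CDH3 and CDH11 lie between 2.89 and 13.2 TPM, and CDH2 is above 1 TPM in CYST replicate 1 alone.

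The list of cadherin partners at cell junctions held nectins, which are adhesion proteins, besides catenins and other intracellular proteins. Of its 14 genes, 12 were tested between MAT and CYST. Of these, 8 were higher and 4 lower in MAT, with a median Log2FC of 0.27 against 0.01 over all 12074 genes tested, and 0 were called by edgeR. *CTNNB1* (beta-catenin) had a Log2FC of -0.10 (SE 0.19, edgeR adjusted p = 0.818) and *CTNNA1* (alpha-catenin) 0.34 (SE 0.20, edgeR adjusted p = 0.377). With the block, 1 gene was called, where 10.6% of all genes tested were. This was *NECTIN4*, a nectin named here after its values were seen (Log2FC 1.08, edgeR adjusted p = 0.0307). The other nectins tested, *NECTIN2* and *NECTIN3*, were also among the higher genes, with a Log2FC of 0.23 and 1.14 without the block.

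*EPCAM* (ENSBTAG00000006474, chromosome 11, 29782761 to 29797419, plus strand) encodes an adhesion and signalling protein of simple epithelia. Its TPM was 413, 450 and 395 in CYST, 668, 764 and 637 in MAT, and 725, 729 and 570 in MAT + COL. Every library with EGF was above every CYST library. The Log2FC between MAT and CYST was 0.70 (SE 0.17), with an edgeR adjusted p of 0.0728 without and 0.0401 with the replicate block. *EPCAM* thus rose in MAT in the blocked fit and was not called in the same fit without the block. Of the other fits without the block, DESeq2 (adjusted p = 0.00672) and edgeR on all 9 libraries (0.0335) called it. Those in limma (0.0685 and 0.0729) did not. The 3 pairs had similar ratios of 1.62, 1.70 and 1.61. The blocked call was lost without the replicate 1 libraries (adjusted p = 0.222) or the replicate 2 libraries (0.199) and was kept without the replicate 3 libraries (0.0152). Against CYST, MAT + COL had a Log2FC of 0.61 (SE 0.17), with an edgeR adjusted p of 0.0940, and 0.0795 with the block.

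*VIM* (ENSBTAG00000018463, chromosome 13, 31653766 to 31661744, plus strand) encodes vimentin, an intermediate filament protein of mesenchymal cells and of some epithelia. Its TPM was 238, 262 and 312 in CYST, 493, 452 and 796 in MAT, and 327, 398 and 810 in MAT + COL. All MAT and all MAT + COL libraries were above the CYST libraries, and replicate 3 was the highest of each group. The means were 271 ± 37.6, 580 ± 188 and 511 ± 261 TPM (SD, n = 3 each). Between MAT and CYST the Log2FC was 1.07 (SE 0.30), with an edgeR adjusted p of 0.101. With the replicate block it was 1.05 (SE 0.16), with an adjusted p of 0.0125, which met the DEG criteria, as 6.01% of genes tested did in the blocked fit. Of the other fits without the block, DESeq2 called *VIM* (adjusted p = 0.0137). Those in edgeR on all 9 libraries (0.149) and in limma (0.0620 and 0.0691) did not. The pairs had MAT to CYST ratios of 2.07, 1.72 and 2.55. The blocked call was kept without the replicate 2 (adjusted p = 0.0255) or replicate 3 libraries (0.00551) and lost without the replicate 1 libraries (0.125). For MAT + COL against CYST the Log2FC was 0.86 (SE 0.40), with an edgeR adjusted p of 0.266, and 0.74 with 0.0800 in the blocked fit. Without MAT + COL replicate 3 the unblocked Log2FC was 0.29.

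*VIM*, *CDH1* and *EPCAM* each had a higher TPM in MAT in all 3 pairs. The *VIM* to *CDH1* TPM ratio was 0.692, 0.564 and 1.27 in CYST, 0.985, 0.796 and 1.63 in MAT, and 0.654, 0.773 and 1.80 in MAT + COL, with overlapping groups. Of 9 stromal markers tested, 0 had a Log2FC above 0 between MAT and CYST, with a median of -0.65, 8 overlapped between the groups in TPM, and 0 were called without the block. With it 1 was called, where 10.6% of all genes tested were. This was *DCN* (decorin, a matrix proteoglycan), which fell with a Log2FC of -1.12 (edgeR adjusted p = 0.0252), and *COL3A1* had -0.77 (0.159). Of 5 smooth muscle markers, 4 were lower in MAT. *TAGLN* (transgelin) was not called without the block (edgeR adjusted p = 0.103) and fell in the blocked fit, with a Log2FC of -1.57 (0.00719). *ACTA2* (smooth muscle actin) had -1.16 (0.102) there.

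Of the 5 transcription factors, *SNAI2* made up 69.7% to 90.9% of the summed TPM in each library. *SNAI1* (ENSBTAG00000014554, chromosome 13, 78036441 to 78042568, plus strand) encodes SNAIL, a zinc finger repressor of *CDH1*. Its TPM was 3.37, 5.66 and 8.24 in CYST, 1.12, 1.99 and 2.73 in MAT, and 3.11, 1.87 and 5.31 in MAT + COL. These rested on 27, 88 and 85 counts in CYST, 7, 33 and 34 in MAT, and 50, 31 and 83 in MAT + COL. All MAT libraries were below all CYST libraries, while MAT + COL overlapped both. The Log2FC between MAT and CYST was -1.59 (SE 0.59), the largest in size of the 8 members tested, with an edgeR adjusted p of 0.177 without and 0.0708 with the block, so *SNAI1* was not called in either. The MAT to CYST ratio of the pairs was 0.333, 0.351 and 0.331, and 24.7% of all genes tested were lower in 3 of 3 pairs. In edgeR on all 9 libraries with the block, the adjusted p was 0.0441. The Log2FC between MAT + COL and CYST was -0.84 (SE 0.58, edgeR adjusted p = 0.453), with pair ratios of 0.922, 0.330 and 0.645.

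*SNAI2* (ENSBTAG00000013227, chromosome 14, 19941415 to 19945240, minus strand) encodes SLUG, the relative of SNAIL. Its TPM was 15.8, 19.4 and 66.2 in CYST, 19.8, 23.9 and 50.1 in MAT, and 18.8, 20.1 and 63.1 in MAT + COL. In each group replicate 3 stood at 50.1 or more and the other libraries at 23.9 or less. The groups overlapped throughout. The Log2FC between MAT and CYST was -0.21 without the block (95% interval -1.73 to 1.31) and 0.05 with it (-0.52 to 0.62), and between MAT + COL and MAT it was 0.06 (-1.38 to 1.5) and -0.06 (-0.42 to 0.30). The *SNAI2* to *SNAI1* TPM ratio was 4.69, 3.43 and 8.03 in CYST, 17.6, 12.0 and 18.4 in MAT, and 6.03, 10.8 and 11.9 in MAT + COL, and did not overlap between CYST and MAT.

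*ZEB1* (ENSBTAG00000020053, chromosome 13, 33771235 to 33968107, minus strand), a zinc finger homeobox repressor of epithelial genes, was at 0.996, 0.653 and 1.97 TPM in CYST, 0.582, 0.371 and 1.98 in MAT, and 0.857, 0.569 and 1.39 in MAT + COL. Replicate 3 was again the highest library of each group. Its Log2FC between MAT and CYST was -0.35 (SE 0.81, edgeR adjusted p = 0.846). Its relative *ZEB2* (ENSBTAG00000012615, chromosome 2, 52173847 to 52307775, plus strand) was at 0.0374, 1.93 and 0.784 TPM in CYST, 0.337, 0.505 and 0.216 in MAT, and 0.727, 0.579 and 0.844 in MAT + COL. The CYST libraries spanned the range of both other groups. The *ZEB2* Log2FC between MAT and CYST was -1.37 (SE 1.03, edgeR adjusted p = 0.496), and -0.41 without CYST replicate 2, which held 100 of the 128 CYST counts. *TWIST1* (ENSBTAG00000046922, chromosome 4, 27817727 to 27820911, minus strand), a basic helix-loop-helix factor, did not pass the count filter. It had 1, 4 and 8 counts in CYST, 0, 0 and 1 in MAT, and 4, 0 and 2 in MAT + COL. The pooled CYST level was 13.1 times that of MAT (exact 95% interval for counting error, 1.96 to 555) and 3.16 times that of MAT + COL (1.12 to 10.1). Without CYST replicate 3, which held 8 of the 13 CYST counts, the ratio to MAT was 6.77 (0.758 to 320).

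Over the whole set, 8 of the 10 genes were tested in each comparison. Between MAT and CYST, 0 of 8 members had an adjusted p under 0.05 in edgeR, where the share among all genes tested was 1.79%, and 4 had an unadjusted p under 0.05 (*CDH1*, *EPCAM*, *VIM* and *SNAI1*), where the share was 20.7%. With the block 2 of 8, *EPCAM* and *VIM*, were called, against 10.6% of all genes. Without the block, DESeq2 called 2 members, also *EPCAM* and *VIM*, among 1235 genes, and limma 0 members at either pseudocount, among 232 and 207 genes. In TPM, 3 members were higher in all MAT libraries than in any CYST library, against 11.9% of all genes tested, and 1 was lower, against 11.8%. By sign, 3 members were higher and 5 lower in MAT, where 50.8% of all genes were higher, with a median Log2FC of -0.28 against 0.01 over all genes. The CYST and MAT libraries also differed in the gland epithelium list, whose summed TPM was 19838 to 22185 in CYST and 31340 to 48902 in MAT. Of its 9 genes, 7 were higher and 2 lower in MAT, 0 were called without the block and 3 with it. The lower genes were *PAX8* (Log2FC -0.26) and *CLDN4* (-0.31). *KRT8* and *KRT19*, which made up most of the sum, rose in the blocked fit, with a Log2FC of 0.88 (edgeR adjusted p = 0.0315) and 1.09 (0.0318). The part of cell composition in the members' values was not tested.

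**Figure D3:**
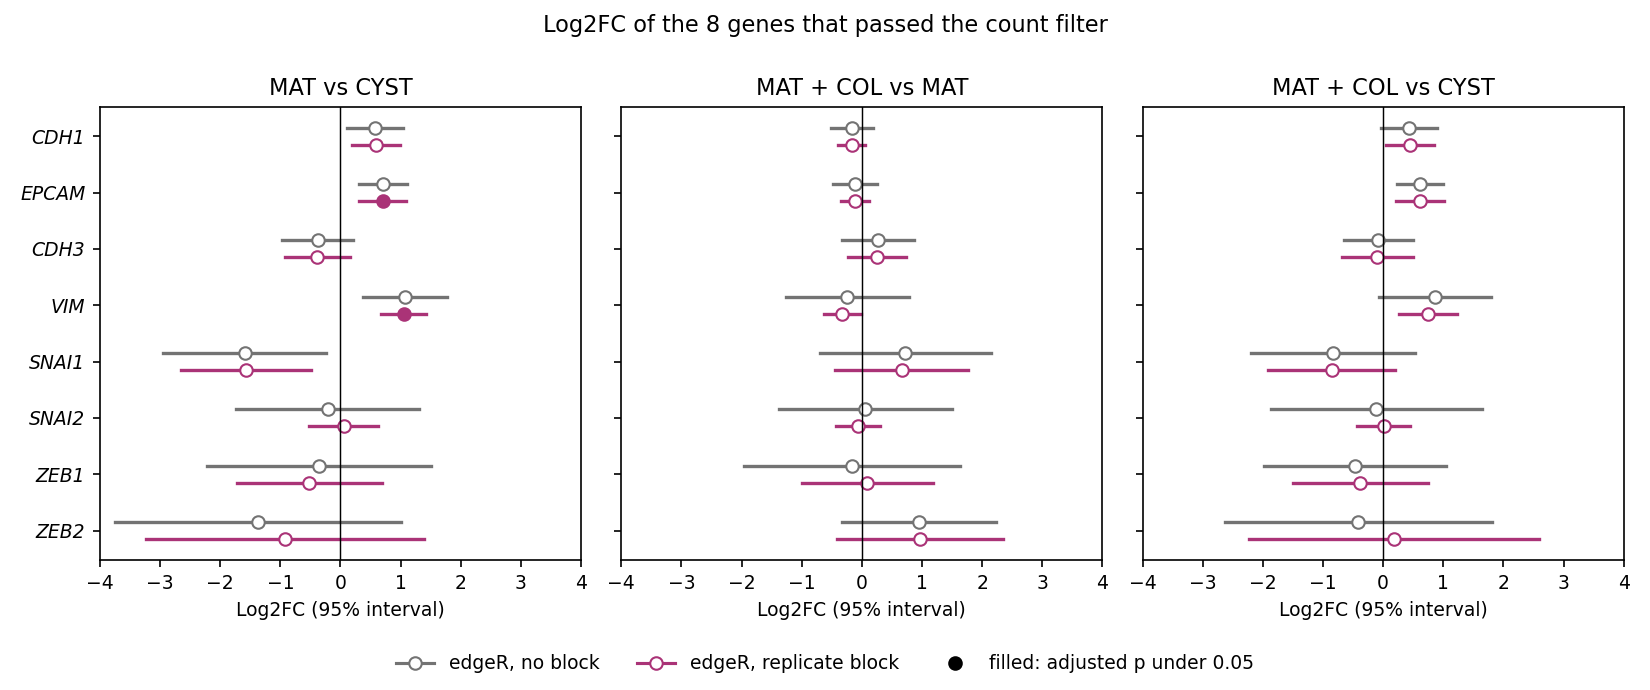
Log2FC (horizontal axis) of the 8 members tested, with 95% intervals, in the 3 comparisons, without a replicate block (grey) and with it (purple); filled symbols mark an adjusted p under 0.05. EPCAM and VIM in MAT vs CYST with the block are the filled symbols, and the intervals of SNAI2 narrow most with the block.

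Collagen I added to EGF cultures gave no called member. Between MAT + COL and MAT, 0 of 12470 genes, or 0%, had an adjusted p under 0.05 in edgeR, with or without the block, while 51 (0.409%) had an unadjusted p under 0.05 without it and 618 (4.96%) with it, among them 0 and 1 members. DESeq2 and limma without the block also called 0. The intervals were narrowest for *CDH1*, with a Log2FC of -0.17 (95% interval -0.52 to 0.18), and *EPCAM*, with -0.11 (-0.48 to 0.26). For *SNAI1* it was 0.72 (-0.70 to 2.15), for *CDH3* 0.28 (-0.32 to 0.88), and for *ZEB1* -0.17 (-1.96 to 1.63). The intervals of *SNAI1* and *ZEB1* thus reached beyond a Log2FC of 1, and those of *CDH1*, *EPCAM* and *CDH3* did not. Without MAT + COL replicate 3 the *SNAI1* value was 0.20, and without MAT + COL replicate 1 the *CDH3* value was 0.099. *ZEB2* was the 1 member whose MAT + COL libraries were all above the MAT libraries, a pattern held by 2.75% of genes tested, with a Log2FC of 0.95 (-0.33 to 2.23) and an unadjusted p of 0.123 in edgeR. This rested on few counts, 7, 28 and 9 in MAT and 39, 32 and 44 in MAT + COL. The ratio of the replicate 2 pair was 1.15 in TPM. *VIM* had a Log2FC of -0.24 (-1.27 to 0.78), and -0.33 (-0.63 to -0.02) with the block, with an adjusted p of 0.955. Of 9 stromal markers tested, 9 were higher in MAT + COL than in MAT, and 0 were called. Their median Log2FC was 0.34, against -0.0005 over all genes tested. The MAT libraries are shared with the comparison of MAT and CYST. MAT replicate 2 had the lowest summed TPM of the stromal list, 760 against 2030 in MAT + COL replicate 2. The sums in MAT and MAT + COL were 1655 and 1920 for replicate 1, and 3021 and 3520 for replicate 3.

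Between MAT + COL and CYST, 0 of 8 members were called in edgeR with or without the block, against 1.49% and 5.26% of all genes tested. Unadjusted, 1 member, *EPCAM*, had a p under 0.05 without the block, as had 21.7% of all genes, and DESeq2 called 1 member among 1419 genes and limma 0. *EPCAM* and *VIM* were higher in all MAT + COL libraries than in any CYST library, as were 14.3% of all genes tested. The CYST libraries are shared with the comparison of MAT and CYST. *CDH3* had a Log2FC of -0.08 (SE 0.25), *SNAI2* -0.11 (SE 0.75), *ZEB1* -0.47 (SE 0.65) and *ZEB2* -0.41 (SE 0.95), all with edgeR adjusted p-values of 0.727 to 0.951. *CDH1* had 0.43 (SE 0.20, edgeR adjusted p = 0.258).

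The replicate number went with the level of 3 members. In a fit of all 9 libraries with the group in the model, edgeR called 3 of 8 members tested for a difference between replicate numbers, against 9.92% of 12858 genes: *SNAI2* (adjusted p = 0.00106), *VIM* (0.0114) and *ZEB1* (0.0425). *SNAI2* was at 50.1 to 66.2 TPM in the replicate 3 libraries and at 15.8 to 23.9 in the others, and *ZEB1* at 1.39 to 1.98 against 0.371 to 0.996. *VIM* was at 312 to 810 TPM in replicate 3 and at 238 to 493 in the others, with CYST replicate 3 inside the range of the latter. *SNAI1* had an adjusted p of 0.129, and *CDH1* (0.338), *ZEB2* (0.554), *CDH3* (0.638) and *EPCAM* (0.737) were not called.

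Some stromal markers also differed between replicate numbers. Of 9 tested, 4 were called, against 9.92% of all genes tested: *DCN* (adjusted p = 0.00355 in edgeR), *LUM* (lumican, 0.0164), *PDGFRA* (a platelet-derived growth factor receptor, 0.0217) and *THY1* (0.0418). *DCN* was at 996 to 1932 TPM in replicate 3 and at 236 to 794 in the others. The summed TPM of the stromal list was highest in replicate 3 of each group, at 4577 in CYST, 3021 in MAT and 3520 in MAT + COL. The part of stromal RNA in the *SNAI2*, *ZEB1* and *VIM* levels was not tested.

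**Figure D4:**
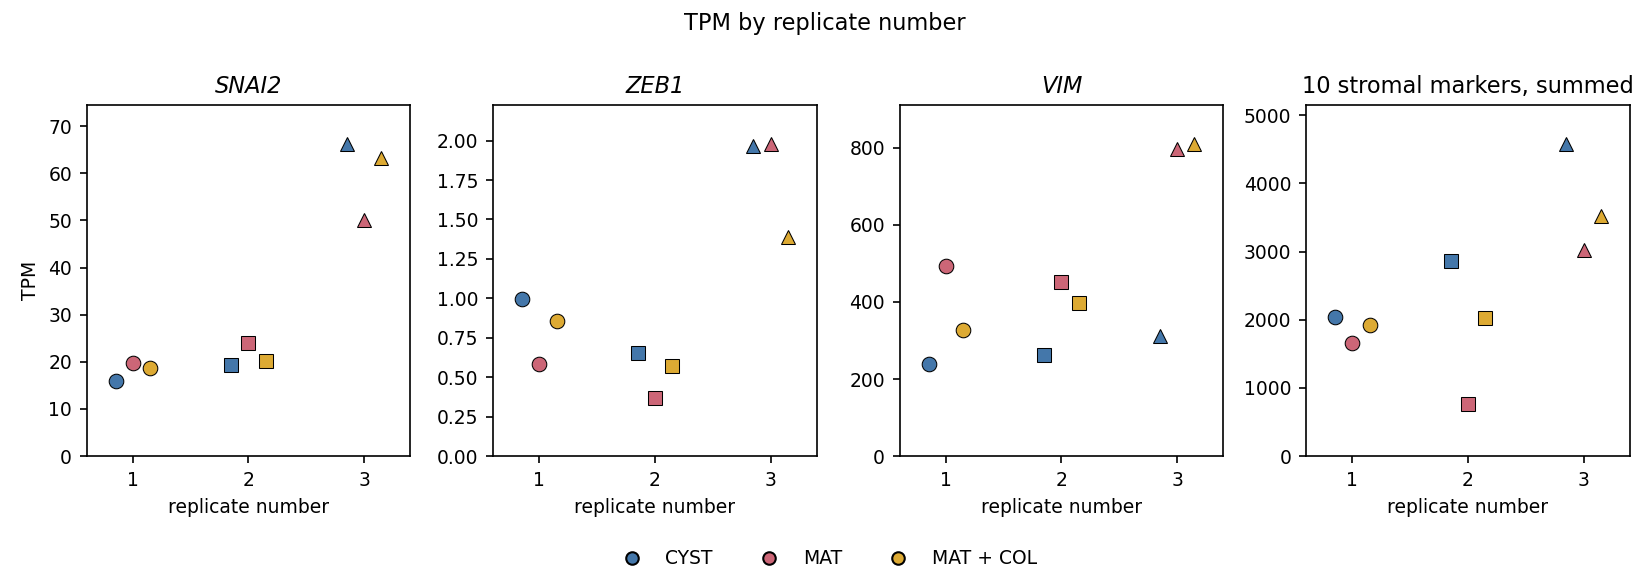
TPM (vertical axes, from 0) of SNAI2, ZEB1 and VIM and the summed TPM of 10 stromal markers against replicate number, coloured by group. The replicate 3 libraries are the highest of each group in all 4 panels, at 50.1 to 66.2 TPM for SNAI2 and 3021 to 4577 TPM for the stromal sum.

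Other genes of the same programmes were described from related lists. Of 16 genes of the epithelial programme, 14 were higher in MAT than in CYST, with a median Log2FC of 0.33 against 0.01 over all genes. Of the 16, 1 was called, where 1.79% of all genes tested were. This was *RAB25*, a small GTPase of epithelial recycling endosomes, which rose from 126 ± 10.8 TPM in CYST to 280 ± 44.1 in MAT (SD, n = 3 each). Its Log2FC was 1.14 (SE 0.18, edgeR adjusted p = 0.0367). Among the most abundant was *PRSS8*, a membrane serine protease, with a Log2FC of 0.04 (SE 0.50, edgeR adjusted p = 0.974). With the block *GRHL3*, an epithelial transcription factor named after its values were seen, was also called (Log2FC 3.41, edgeR adjusted p = 0.0333), at 0 to 4.51 TPM. Without the block its adjusted p was 0.230. The blocked fit thus called 2 of 16, where 10.6% of all genes tested were called.

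Of 13 other transcription factors linked to the transition, 6 were tested and 0 were called in any comparison. *SOX4* was at 31.8 to 88.2 TPM, with a Log2FC of 0.32 (SE 0.34, edgeR adjusted p = 0.642) between MAT and CYST, and *SOX9*, a transcription factor of gland and progenitor epithelium, at 9.18 to 29.2 TPM with 0.82 (SE 0.37, 0.260).

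Of 16 mesenchymal effector genes, 6 were higher and 10 lower in MAT than in CYST, with a median Log2FC of -0.40. In edgeR 1 rose and 1 fell, where 1.79% of all genes tested were called. *S100A4*, a calcium-binding protein also used as a fibroblast marker, rose from 57.1, 65.9 and 83.7 TPM in CYST to 259, 428 and 587 in MAT (Log2FC 2.59, SE 0.37, edgeR adjusted p = 0.0269), and was at 198, 373 and 462 in MAT + COL (Log2FC 2.26 against CYST, adjusted p = 0.0453). *CALD1* (caldesmon, an actin-binding protein) fell from 41.8, 46.8 and 38.3 TPM in CYST to 11.6, 13.4 and 18.5 in MAT (Log2FC -1.54, SE 0.23, edgeR adjusted p = 0.0285), and was at 15.1, 20.0 and 20.3 in MAT + COL (Log2FC -1.25 against CYST, adjusted p = 0.0383).

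*PDPN* (podoplanin, a membrane glycoprotein) fell between CYST and MAT + COL, from 383, 271 and 193 to 84.2, 53.1 and 92.7 TPM (Log2FC -1.92, SE 0.29, edgeR adjusted p = 0.0373). Between CYST and MAT its Log2FC was -1.72 (SE 0.46), with an edgeR adjusted p of 0.0903, and 0.0259 with the block. *FN1* (fibronectin) had a Log2FC of 0.21 (SE 0.27, edgeR adjusted p = 0.725) between MAT and CYST. With the block 3 rose and 2 fell between MAT and CYST, where 10.6% of all genes tested were called. The additional 2 genes were *L1CAM* (Log2FC 2.12, edgeR adjusted p = 0.0135), an adhesion protein, and *NT5E* (1.55, 0.0388), an ectonucleotidase, both named after their values were seen. Without the block *L1CAM* had 2.25 (SE 0.58, edgeR adjusted p = 0.0824) and *NT5E* 1.93 (SE 1.32, 0.454). *NT5E* was at 41.6, 178 and 7.16 TPM in CYST and 207, 601 and 9.72 in MAT, with overlapping groups. Both genes were also called for the replicate number (edgeR adjusted p = 0.0363 and 0.000609).

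Of 7 genes that act on E-cadherin turnover or cleavage, 5 were higher in MAT and 0 were called in any comparison, with or without the block. *MMP7*, a secreted protease that can cleave E-cadherin, had a Log2FC of 0.65 (SE 0.39, edgeR adjusted p = 0.391) between MAT and CYST. Of the endothelial markers 4 of 6, and of the leukocyte markers 2 of 5 tested, were higher in MAT, with 0 called. The summed TPM was 8.60 to 44.3 for the former list and 79.6 to 182 for the latter over the 9 libraries. By mean TPM, *VWF* and *CLDN5* led the endothelial list, with a Log2FC of 0.27 (SE 0.36) and 1.07 (SE 1.52). The lower genes there were *PECAM1* (-0.39, SE 0.97) and *CDH5* (-0.22, SE 1.22). *CD74*, at 40.9 to 157 TPM, and *CD14*, at 13.2 to 45.2, led the leukocyte list and made up most of its sum, with 0.79 (SE 0.40) and 0.33 (SE 0.44). In the same list *CD68* was at 2.21 to 10.2 TPM and *LAPTM5* at 1.36 to 5.52. *PTPRC* was at 0 to 1.19 TPM, *CD3E* at 0 to 0.568 and *TYROBP* at 0 to 1.69. The lower genes of that list were *CD68* (-1.23, SE 0.55), *PTPRC* (-0.98, SE 1.24) and *LAPTM5* (-0.76, SE 0.43).

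The genes most alike in pattern were sought by the root mean square difference in gene-centred log2 CPM over the 9 libraries, among 12857 genes. Closest to *CDH1* were *FNBP1L* (0.0742), *ERBB3* (0.0997) and *TASOR* (0.110), where the median over all genes was 0.520. *ERBB3*, a receptor of the EGF receptor family, was at 283, 382 and 200 TPM in CYST, 433, 520 and 398 in MAT, and 470, 511 and 379 in MAT + COL. *EPCAM* ranked 206 and *CDH3*, the neighbour of *CDH1* on the chromosome, 5233. Closest to *VIM* were *RRAS* (0.155), *MARK2* (0.159) and *FXYD5* (0.175), with a median of 0.781. *RRAS*, a small GTPase, was at 46.8, 55.8 and 65.4 TPM in CYST, 100, 79.2 and 143 in MAT, and 71.6, 77.5 and 124 in MAT + COL. Closest to *SNAI1* were *PRSS53* (0.310), *REG4* (0.343) and *CCDC181* (0.386), with a median of 0.962, and *PRSS53* stayed below 0.6 TPM in each library.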

How the data were processed

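RNA from 9 cultures, 3 each of CYST, MAT and MAT + COL, was sequenced on day 5 of culture. Reads had been trimmed and aligned to ARS-UCD2.0 in CLC Genomics Workbench 25.0.1 with default parameters. For 20679 genes the authors deposited raw read counts per library, not normalized, and TPM values, which are scaled to gene length and library total. The annotation release and strand setting are not given in the sources used here, so reads of overlapping or antisense genes could not be separated. All per-sample columns were used. Groups and replicate numbers came from the sample labels.

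The counts of each pair of groups (6 libraries) were filtered with filterByExpr (minimum count of 10), scaled by TMM and tested with the quasi-likelihood test (glmQLFit, glmQLFTest) of edgeR 4.0.16 in R 4.3.3. The p-values of all genes tested were adjusted by the Benjamini-Hochberg method. Called genes had an adjusted p under 0.05. DEGs further needed an absolute Log2FC over 1 and more than 1 TPM in all 6 libraries. Standard errors are the Log2FC divided by the square root of its F statistic. As a check of pairing, gene-wise deviations from the group mean were compared between libraries with the same number, and correlated over genes at 0.329, 0.437 and 0.396 between MAT and CYST, at 0.471, 0.613 and 0.687 between MAT + COL and MAT, and at 0.278, 0.350 and 0.347 between MAT + COL and CYST. The replicate numbers were therefore taken to pair the libraries, and a second fit had the number as a replicate block. The study's results speak of individuals in the MAT and MAT + COL clustering, but its methods name no paired test, so the main fit has no block. Its groups and DEG criteria follow those methods, which do not name the test used. The study reported more DEGs between MAT and CYST than the 175 of the main fit. A member not called here is therefore not shown to be unchanged by the study's own test. DESeq2 1.42.0 and limma 3.58.1 (on log2(TPM + 1) and log2(TPM + 0.1), with a TPM above 0.5 in at least 3 libraries) gave alternatives. Scripts were tested on simulated counts with 200 changed genes. Figures were drawn with matplotlib 3.10.9.

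The members, the related gene lists and the tests were chosen with earlier results of these data known. The genes named were the 10 members, from each list those called in any comparison and the 2 with the highest mean TPM, and, for CDH1, VIM and the member with the largest Log2FC between MAT and CYST, the 3 genes with the most similar pattern. Some list genes that this rule names are not reported here. The test of the replicate number, and fits joining the block to another choice, were chosen after seeing the data. No sequences were read.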

Additional observations from a re-analysis of the deposited data

How the results depend on the processing

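The blocked fit changed the calls of *EPCAM* and *VIM* between MAT and CYST and of no other member, and raised the number of genes called from 216 to 1277 there and from 186 to 658 between MAT + COL and CYST, and the number of DEGs from 175 to 726 and from 141 to 433. Without the block, DESeq2 called 1235 and 1419 genes and 2 and 1 members, and the fit of all 9 libraries called 580 and 601 genes, and 1 member between MAT and CYST. With the block, DESeq2 called 1957 and 1850 genes and 3 and 2 members, the fit of all 9 libraries 2118 and 2035 genes and 4 and 2 members, and RLE size factors 1265 and 692 genes, with 2 members between MAT and CYST. Leaving out 1 library gave 5 to 267 and 3 to 186 called genes and 0 members. Leaving out both libraries of replicate 1, 2 or 3 in the blocked fit gave 36, 614 and 1867 genes (0, 1 and 2 members) between MAT and CYST, and 126, 109 and 2406 (0, 0 and 1 members) between MAT + COL and CYST. For MAT + COL against MAT, the blocked fit gave 1 gene with DESeq2, and 0, 1 and 46 without replicates 1, 2 and 3. The causes were not tested.

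Each Log2FC of the members was recomputed under 18 or 19 alternative settings that reuse the same libraries, which gave 455 values. Of these, 381 kept their sign and side of the threshold, 23 kept the sign and passed the threshold, and 51 turned the sign. *SNAI2* turned in all 3 comparisons. Between MAT and CYST it was 0.050 with the block, 0.066 and 0.073 in limma at a pseudocount of 1 and 0.1, 0.069, 0.091 and 0.067 with the block in DESeq2, all 9 libraries and RLE, and 0.39 with the block and no replicate 3. Between MAT + COL and MAT it was -0.063 with the block, -0.066, -0.082 and -0.065 with the block in DESeq2, all 9 libraries and RLE, and -0.25 with the block and no replicate 3. Against CYST, MAT + COL gave for these 0.0067, 0.0018, 0.0084, 0.00062 and 0.14, with 0.072 and 0.076 in limma at a pseudocount of 1 and 0.1. *ZEB1* between MAT + COL and MAT was 0.094 with the block, 0.037 and 0.17 in limma at those pseudocounts, 0.11, 0.10 and 0.092 with the block in DESeq2, all 9 libraries and RLE, and 0.50 without replicate 3. *ZEB2* between MAT + COL and CYST was 0.17 with the block, 0.37 in limma at a pseudocount of 0.1, 0.33, 0.033 and 0.17 with the block in DESeq2, all 9 libraries and RLE, and 1.44 and 0.23 without replicates 2 and 3. *CDH3* in that comparison was 0.13 with the block and no replicate 2. For *ZEB2* between MAT and CYST the blocked fit without replicate 2 gave no value, because the gene did not pass the filter.

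Leaving out 1 library, the Log2FC between MAT and CYST ranged from -0.77 to 0.94 for *SNAI2* and from -1.47 to 0.37 for *ZEB1*. For MAT + COL against MAT it ranged from -0.82 to 0.62 for *SNAI2*, from -0.61 to 0.97 for *ZEB1* and from -0.80 to 0.094 for *VIM*. Between MAT + COL and CYST it ranged from -1.01 to 1.03 for *SNAI2*, from -0.94 to 0.25 for *ZEB1*, from -0.96 to 0.55 for *ZEB2* and from -0.26 to 0.046 for *CDH3*. Without a turn in sign, it ranged from 0.74 to 1.32 for *VIM* between MAT and CYST and from 0.29 to 1.14 between MAT + COL and CYST, for *SNAI1* from -1.93 to -1.09, 0.20 to 1.07 and -1.38 to -0.34 in the 3 comparisons (MAT vs CYST, MAT + COL vs MAT, MAT + COL vs CYST), and for *CDH3* from -0.51 to -0.25 and 0.099 to 0.42 in the first pair of these. *CDH1*, *EPCAM* and *SNAI1* kept their sign under every alternative run. *CDH2* and *TWIST1*, with 0 to 31 and 0 to 8 counts in a library, did not pass the count filter.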
